A study of Rattus norvegicus with 12 samples.

Results

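The genes that make, break down and read cAMP were taken from the RNA-seq data by gene name: the adenylyl cyclases (Adcy), the phosphodiesterases (Pde), the catalytic and regulatory subunits of PKA (Prkac and Prkar), the A-kinase anchoring proteins (Akap), and the Creb and Crem transcription factors. The names were matched by pattern without use of any measured value, and 56 of 18753 gene names were found, on 60 of 22442 gene records. Where 2 records carried a name (Adcy5, Akap5, Akap10 and Pde3a), the record with the higher mean was used. Of the 56 genes, 37 had a mean of at least 1 FPKM (fragments mapped to a transcript, scaled by its length and by the fragments of the library) over all libraries and were tested, 6 had a mean between 0.1 and 1 FPKM, and 13 lay below 0.1 FPKM.

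cAMP is made from ATP by adenylyl cyclases, most of which are switched on by the stimulatory G protein Gs below receptors such as those for adenosine and prostaglandins, and it is broken down by phosphodiesterases. It binds the regulatory subunits of PKA and frees the catalytic subunits, while AKAPs hold the kinase at particular places in the cell, and free PKA phosphorylates CREB, which binds the cAMP response element of its target genes. In synovial fibroblasts cAMP is known for its bearing on inflammatory gene expression, and the bile acid receptor TGR5 is coupled to Gs.

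The cells were fibroblast-like synoviocytes (FLS) at passage 3, grown from the synovium of male Sprague-Dawley rats in which complete Freund's adjuvant had induced arthritis (AA). All 4 groups were made of such AA cells, so there was no group from healthy rats. The FCA group received only DMEM. The bile acid TCDCA (taurochenodeoxycholic acid) was given for 12 h at 10 µM in AT10, 1 µM in AT1 and 0.1 µM in AT01, with 3 libraries in each group. The study describes the numbers 1 to 3 as repeats of the experiment, but neither it nor the labels say whether these used separate animals or cultures, so the p-values below measure only the spread between these libraries, which may be technical.

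The FPKM values of a library summed to between 284210 and 309696, and between 11471 and 11679 records reached 1 FPKM in a library. The read counts behind a value were not analysed here, so the depth of a single value and its counting error are unknown. Of the 14 markers of FLS examined, 12 were in the table and all 12 had a mean of at least 1 FPKM, with vimentin (Vim) between 1942 and 3084 FPKM. All 4 endothelial markers in the table lay below 0.1 FPKM. Of 5 smooth muscle markers 4 had a mean of at least 1 FPKM, and their summed level was 69.8 to 81.0 FPKM in FCA, 56.6 to 84.7 in AT10, 65.6 to 76.7 in AT1 and 65.2 to 71.1 in AT01. Of 4 neuronal and glial markers only Snap25 (1.16 to 1.99 FPKM) was above 0.1 FPKM on average. Of 8 macrophage markers examined, 5 were in the table. Cd14 (3.60 to 18.8 FPKM) and Cd68 (1.66 to 2.91 FPKM) were present, while Csf1r stayed at or below 0.26 FPKM and Adgre1 at or below 0.03 FPKM. Lyz2 had a mean of 0.232 FPKM and reached 1.00 FPKM in AT01 replicate 1. The summed level of the 5 macrophage markers was 6.73 to 22.0 FPKM in FCA, 18.5 to 21.5 in AT10, 5.75 to 17.8 in AT1 and 7.09 to 20.3 in AT01, and the part of these markers in the results below was not tested.

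Each layer of the pathway was present in these cells, and most of its RNA came from a few isoforms. At a mean of at least 1 FPKM were 8 of 10 cyclases, 11 of 22 phosphodiesterases, both catalytic and all 4 regulatory subunits of PKA, 9 of 14 AKAPs and 3 of 4 genes of the CREB family. FPKM is scaled by transcript length, and on that basis levels were set side by side between genes. For Adcy5, Akap5, Akap10 and Pde3a the level is that of 1 of 2 records and may be too low. The Pde3a records summed to a mean of 2.82 FPKM, against 1.535 for the record used. The highest levels belonged to Creb3, with a mean of 73.3 FPKM over the 12 libraries, and to Prkar1a, with 68.9 FPKM.

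**Figure D1:**
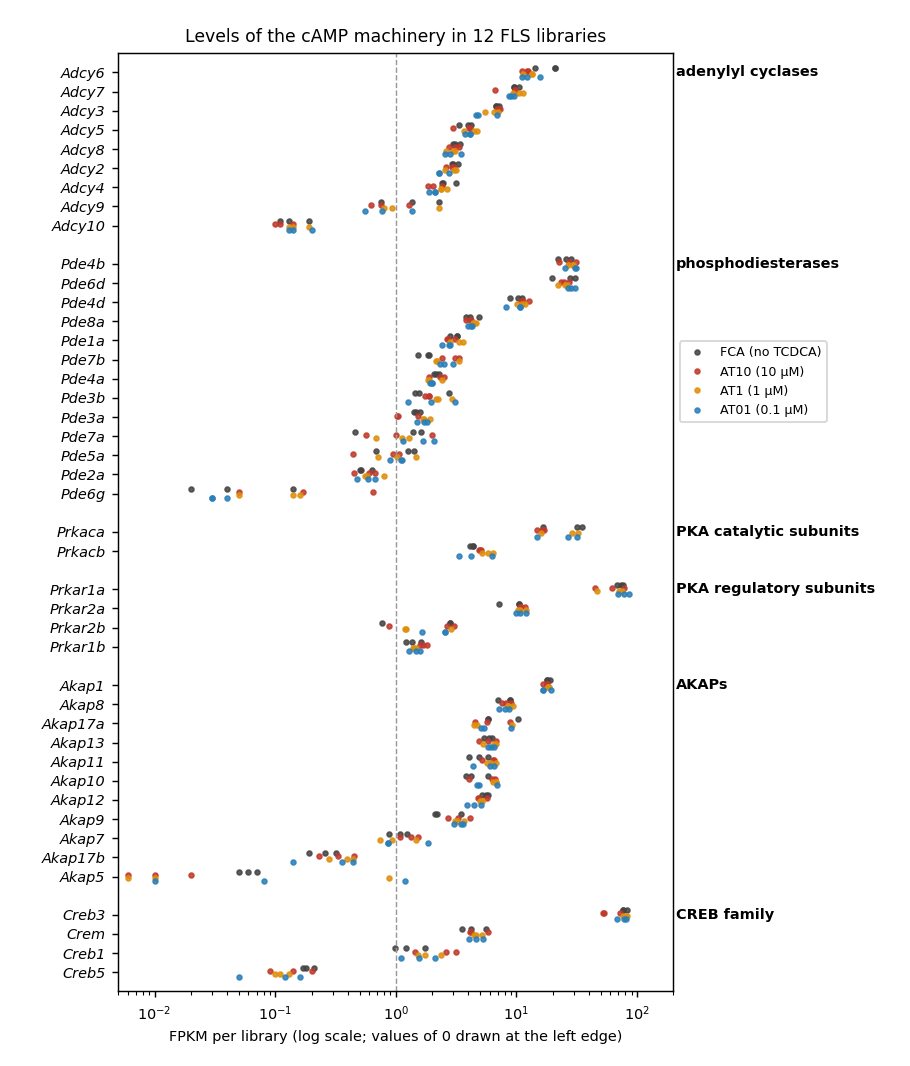
FPKM of the 43 genes with a mean of at least 0.1 FPKM, ordered by class and by mean, on a log axis; each point is 1 library, coloured by group, and the dashed line marks 1 FPKM. Adcy6, Pde4b, Prkaca, Prkar1a, Akap1 and Creb3 lead their classes by mean, and the groups overlap for most genes.

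Among the cyclases, Adcy6, a form that is inhibited by calcium, ranked first in 12 of 12 libraries. Its mean made up 32.4% of the summed cyclase FPKM, and its share of a single library ran from 27.8% to 40.3%. Adcy7, which G protein beta-gamma dimers stimulate further, held 21.8% and was second in 11 libraries, and Adcy3, a form stimulated by calcium and calmodulin, held 14.9%. Adcy5, the closest relative of Adcy6, followed with 9.12%. Adcy8, Adcy2, Adcy4 and Adcy9 had means of 3.01, 2.81, 2.32 and 1.15 FPKM. The soluble cyclase Adcy10, which responds to bicarbonate, was low at 0.10 to 0.20 FPKM, and Adcy1, known mainly from neurons, did not exceed 0.08 FPKM.

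Among the phosphodiesterases, Pde4b, an enzyme selective for cAMP, ranked first in 9 libraries and Pde6d in the other 3. Pde6d carries a phosphodiesterase name but is a chaperone of prenylated proteins that hydrolyses no cyclic nucleotide. Pde4d was the third in 12 of 12 libraries and Pde8a, another cAMP-selective enzyme, the fourth in all 12. The summed phosphodiesterase FPKM of a library includes Pde6d, which made up between 26.956% and 39.717% of it. Of this sum the 8 cAMP-selective enzymes held between 50.6% and 62.8%. The enzymes that hydrolyse both cAMP and cGMP held between 6.54% and 10.2%, and the cGMP-selective enzymes between 0.577% and 1.81%. Each of these shares would be higher with Pde6d left out of the sum. Pde5a, the cGMP-selective enzyme that sildenafil inhibits, had a mean of 1.01 FPKM, just inside the filter. Pde2a (mean 0.588 FPKM) and Pde6g (0.127 FPKM) were low. The 9 phosphodiesterases below 0.1 FPKM were Pde1b, Pde1c, Pde4c, Pde6a, Pde6b, Pde6c, Pde6h, Pde8b and Pde9a, of which Pde9a was listed at 0 in all 12 libraries.

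**Figure D2:**
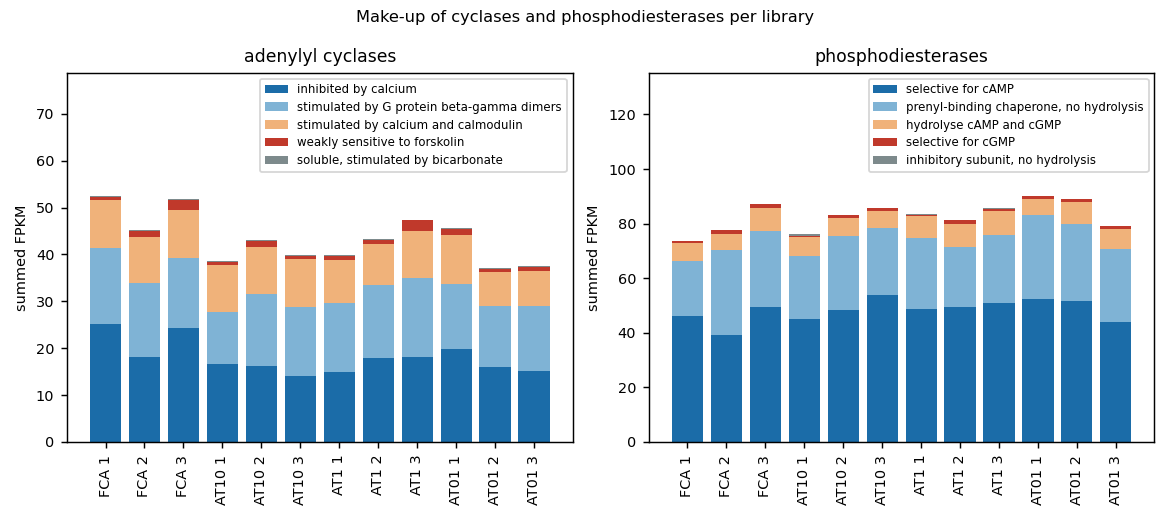
Summed FPKM of the cyclases (left) and of the phosphodiesterases (right) in each of the 12 libraries, stacked by the regulation or substrate of the isoforms. The cyclase bars of FCA reach 45.1 to 52.5 FPKM and those of the TCDCA libraries 37.0 to 47.4 FPKM, while the cAMP-selective enzymes are the tallest part of every phosphodiesterase bar.

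Of the PKA catalytic subunits, Prkaca was above Prkacb in 12 of 12 libraries, by a ratio of 2.74 to 9.53 in FPKM. Of the regulatory subunits, Prkar1a (type I alpha) was first and Prkar2a (type II alpha) second in every library, and type I subunits held between 80.1% and 88.6% of the regulatory FPKM. The lower pair was Prkar2b, which ran from 0.77 to 3.04 FPKM, and Prkar1b, which stayed between 1.22 and 1.82 FPKM. Summed regulatory FPKM exceeded summed catalytic FPKM 1.70 to 5.19 times, and the 4 groups overlapped in this ratio.

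Of the AKAPs, Akap1, which anchors PKA at the outer mitochondrial membrane, ranked first in 12 of 12 libraries with 29.8% of the class. Akap8, a nuclear AKAP, was second in 9 libraries and the splicing factor Akap17a in 3. Akap13, Akap11, Akap10, Akap12 (gravin) and Akap9 (of the Golgi and centrosome) had means between 3.16 and 6.01 FPKM, and Akap7 had 1.15 FPKM. Akap17b was low, and Akap3, Akap6 and Akap14 were below 0.1 FPKM. Akap5, the neuronal AKAP79/150, was at or below 0.08 FPKM in 10 libraries and at 0.87 FPKM in AT1 replicate 2 and 1.20 FPKM in AT01 replicate 1. The mean of Akap5 thus rested on those 2 libraries.

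Within the CREB family the order Creb3, Crem, Creb1, Creb5 held in 12 of 12 libraries. Creb3 took 91.8% of the summed FPKM of these 4 genes, yet it is a membrane-bound factor of the endoplasmic reticulum that is released by proteolysis. Creb1, the classical substrate of PKA, took 2.25%, and its mean was 1.79 FPKM. Both shares depend on the name pattern, which left out Creb3l1 (mean 22.6 FPKM), Atf1 (21.0 FPKM) and Creb3l2 (6.60 FPKM). Crem, whose locus gives both activators and the repressor ICER, lay between 3.54 and 5.76 FPKM, with the 4 groups overlapping. Creb5 was low, between 0.05 and 0.21 FPKM.

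No gene of the set passed an adjusted p under 0.05 (limma on log2(FPKM + 1), Benjamini-Hochberg over all 11611 records tested) in any of the 8 tests. Of all records, compared with FCA, 0.172% passed in AT10, 0.0947% in AT1, 0.0947% in AT01, 0.0258% with the 9 TCDCA libraries together, 0.258% for AT10 compared with AT1, 0.0689% for AT10 compared with AT01, 0.129% for AT1 compared with AT01 and 0.0431% in the F test over the 4 groups. By the study's own rule, which asks for a log2 fold change beyond 1 or -1 at an unadjusted p under 0.05, 0 of 37 genes were called in each of the 7 comparisons of groups, against 0.706%, 0.62%, 0.758%, 0.491%, 0.594%, 0.672% and 0.568% of all records, in the same order. The 3 comparisons with FCA share its libraries and are not independent of each other.

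At an unadjusted p under 0.05 there were 4 of 37 genes in AT10 against FCA, where 11.9% of all records passed, 3 in AT1 (11% of all records) and 3 in AT01 (6.6%). With the 9 TCDCA libraries together there were 5 (12% of all records), and in the F test 4 (8.57%). Each count was close to what these shares of 37 genes come to. At the doses of AT10, AT1 and AT01 the median log2 fold change of the 37 genes was -0.02, 0.03 and 0.03, beside -0.01, 0.02 and 0.00 for all records. The spread of the 37 genes within a group was also that of the records as a whole, with a median SD of 0.170 on the log2 scale for both.

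The 95% interval of the log2 fold change lay between -1 and 1 for 33 of 37 genes in AT10, 34 in AT1 and 35 in AT01, against 85.3%, 86.2% and 85% of all records. With the 9 TCDCA libraries together it did so for all 37, against 89.4% of all records. The exceptions were Prkaca at all 3 doses, Prkar2b in AT10 and AT1, Adcy9 in AT10 and AT01, Akap17a in AT1 and Creb1 in AT10, genes whose replicates lay far apart.

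**Figure D3:**
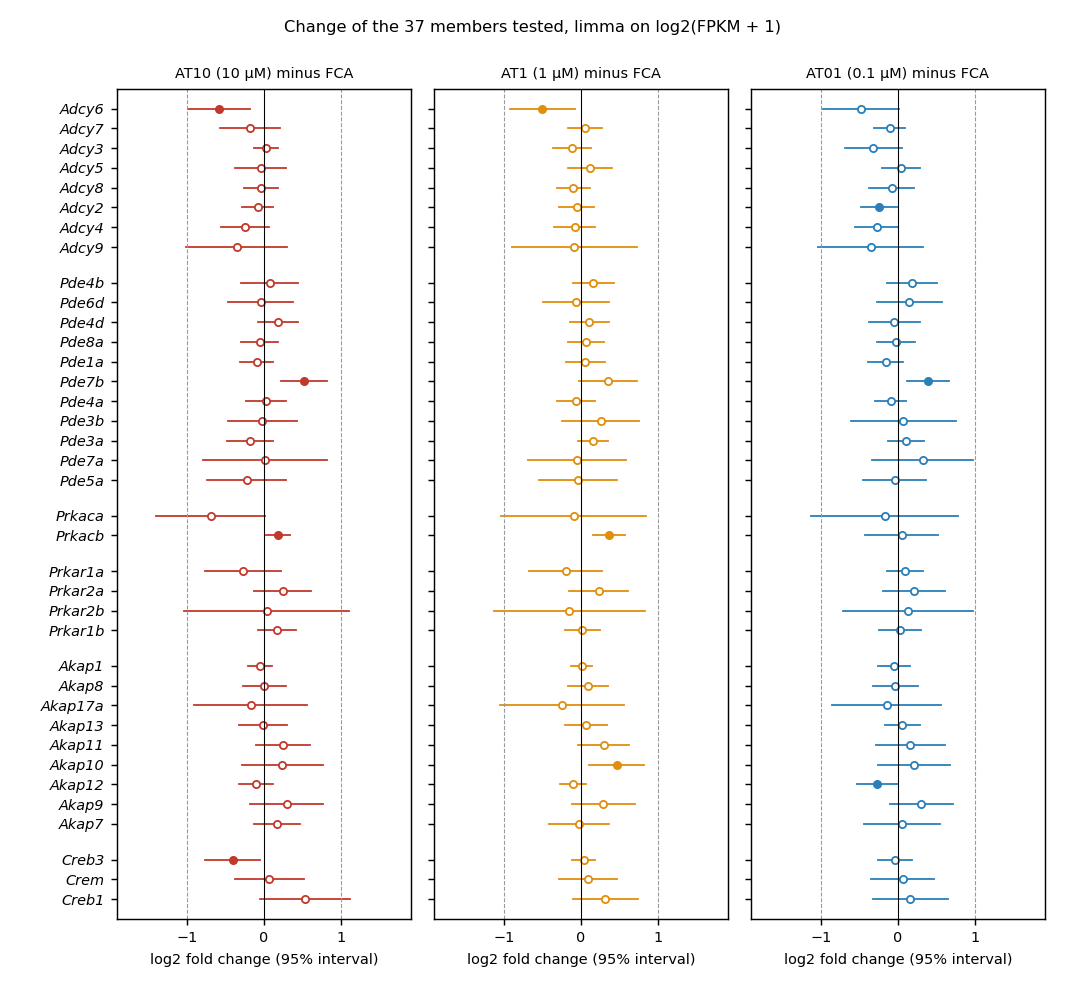
Log2 fold change of the 37 genes tested in AT10, AT1 and AT01 against FCA (points, limma on log2(FPKM + 1)) with 95% intervals (lines); filled points have an unadjusted p under 0.05 and dashed lines mark -1 and 1. Filled points are few in each panel, 4, 3 and 3 of 37, and none passed the adjusted threshold.

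The cyclase Adcy6 had the smallest unadjusted p of the set when all TCDCA libraries were set against FCA. It was at 20.86, 14.12 and 20.88 FPKM in FCA, at 12.46, 12.24 and 11.07 in AT10, at 11.26, 13.45 and 13.44 in AT1 and at 15.77, 12.26 and 11.08 in AT01. All FCA libraries were above all AT10 and AT1 libraries, whereas FCA replicate 2 lay below AT01 replicate 1, so that 8 of 9 TCDCA libraries were lower than every FCA library. The log2 difference was -0.58 (SE 0.16, limma adjusted p = 0.284) in AT10, -0.50 (SE 0.17, adjusted p = 0.428) in AT1 and -0.48 (SE 0.20, adjusted p = 0.72) in AT01. For TCDCA as a whole it was -0.52 (SE 0.12, limma adjusted p = 0.255, exact permutation p = 0.0182). Since RNA was taken from whole cultures, here and below, less RNA per cell and fewer cells that carry it cannot be told apart.

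On the log2(FPKM + 1) scale the other cyclases were nearer to FCA. The pseudocount compresses differences at low levels, as for Adcy9, with means of 1.46 FPKM in FCA, 0.887 in AT10, 1.34 in AT1 and 0.90 in AT01. Of the 8 tested, Adcy6 included, 1 had a positive log2 fold change in AT10, 2 in AT1 and 1 in AT01. Of all records 48.2%, 53.2% and 50.3% were positive. The medians of the 8 were -0.13, -0.08 and -0.26. Summed over the class, cyclase FPKM was 49.8 ± 4.07 (SD, n = 3) in FCA, 40.5 ± 2.36 in AT10, 43.5 ± 3.83 in AT1 and 40.0 ± 4.85 in AT01. This sum overlapped between FCA and both AT1 and AT01 but not AT10, and the mean of Adcy6 alone was 18.6 FPKM in FCA and 11.9 FPKM in AT10.

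Adcy2 was at 3.27, 2.94 and 2.99 FPKM in FCA, at 2.61, 3.01 and 2.90 in AT10, at 3.02, 2.56 and 3.16 in AT1 and at 2.26, 2.30 and 2.75 in AT01. It was separate from FCA at the lowest dose alone, where the log2 difference was -0.24 (SE 0.10, limma adjusted p = 0.72). Adcy4 was at 2.41, 3.17 and 2.45 FPKM in FCA, at 1.84, 2.43 and 2.03 in AT10, at 2.37, 2.64 and 2.36 in AT1 and at 1.88, 2.12 and 2.10 in AT01. AT01 lay below FCA in every library, and for TCDCA as a whole the log2 difference was -0.20 (SE 0.09, limma adjusted p = 0.416), or -0.11 without FCA replicate 2. Both are forms that beta-gamma dimers stimulate, as is Adcy7. Adcy7 was at 10.53, 9.61 and 9.45 FPKM in FCA, at 6.60, 9.77 and 9.75 in AT10, at 9.28, 10.45 and 11.24 in AT1 and at 9.63, 8.67 and 8.94 in AT01, where 1 library of AT10 stood low and the groups otherwise overlapped. Adcy3 was at 7.19, 6.79 and 6.80 FPKM in FCA, at 7.35, 7.04 and 6.87 in AT10, at 6.56, 5.47 and 7.08 in AT1 and at 6.90, 4.59 and 4.80 in AT01, so that 2 of 3 AT01 libraries lay below every other library.

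The cAMP-selective phosphodiesterase Pde7b was the only gene of the 37 (2.7%) whose 9 TCDCA libraries did not overlap the 3 of FCA. Of all records 2.86% did so, a similar share, and 0.956% did so in the higher direction. It was at 1.52, 1.89 and 1.86 FPKM in FCA, at 3.31, 2.43 and 3.12 in AT10, at 3.31, 2.15 and 2.18 in AT1 and at 2.34, 2.51 and 2.98 in AT01. Every TCDCA library was at 2.15 FPKM or higher and every FCA library at 1.89 FPKM or lower, and the 3 doses overlapped each other. The log2 difference was 0.52 (SE 0.12, limma adjusted p = 0.215) in AT10, 0.35 (SE 0.15, adjusted p = 0.453) in AT1 and 0.39 (SE 0.11, adjusted p = 0.69) in AT01. For TCDCA as a whole it was 0.42 (SE 0.11, limma adjusted p = 0.295, exact permutation p = 0.00909). The two-sided permutation test of 9 libraries against 3 cannot give a smaller p. It gives this p to any gene whose groups do not overlap, so it only restates the separation. At these levels the pseudocount of 1 FPKM compresses a fold change, and the plain means were 1.76 FPKM in FCA and 2.70 FPKM in TCDCA.

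The 3 most abundant phosphodiesterases showed no such separation. Pde4b was at 25.98, 21.89 and 28.46 FPKM in FCA, at 22.51, 27.42 and 30.98 in AT10, at 26.66, 29.41 and 29.30 in AT1 and at 30.91, 30.68 and 25.26 in AT01. Its log2 difference for TCDCA as a whole was 0.14, with a 95% interval from -0.08 to 0.37. Pde6d was at 19.88, 30.84 and 27.75 FPKM in FCA, at 23.30, 27.19 and 24.70 in AT10, at 26.25, 22.25 and 25.12 in AT1 and at 30.79, 28.29 and 26.87 in AT01. All 9 TCDCA libraries thus lay inside the range of FCA. Pde4d was at 10.39, 8.88 and 11.12 FPKM in FCA, at 10.81, 11.43 and 12.63 in AT10, at 11.02, 10.11 and 11.78 in AT1 and at 10.60, 10.60 and 8.19 in AT01, and the groups overlapped apart from AT10, which was above AT01. Pde3a, which cGMP inhibits, passed the F test over the 4 groups before adjustment (limma adjusted p = 0.57). The Pde3a record used was at 1.48, 1.41 and 1.58 FPKM in FCA, at 1.02, 1.54 and 1.04 in AT10, at 1.69, 1.71 and 1.93 in AT1 and at 1.70, 1.50 and 1.82 in AT01. AT10 was below AT1 in every library and AT1 was above FCA in every library. A second Pde3a record ran from 0.38 to 2.31 FPKM, and with both records summed the AT10 mean (2.94 ± 0.663 FPKM, SD, n = 3) was above the FCA mean (2.57 ± 0.264 FPKM), the opposite order.

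**Figure D4:**
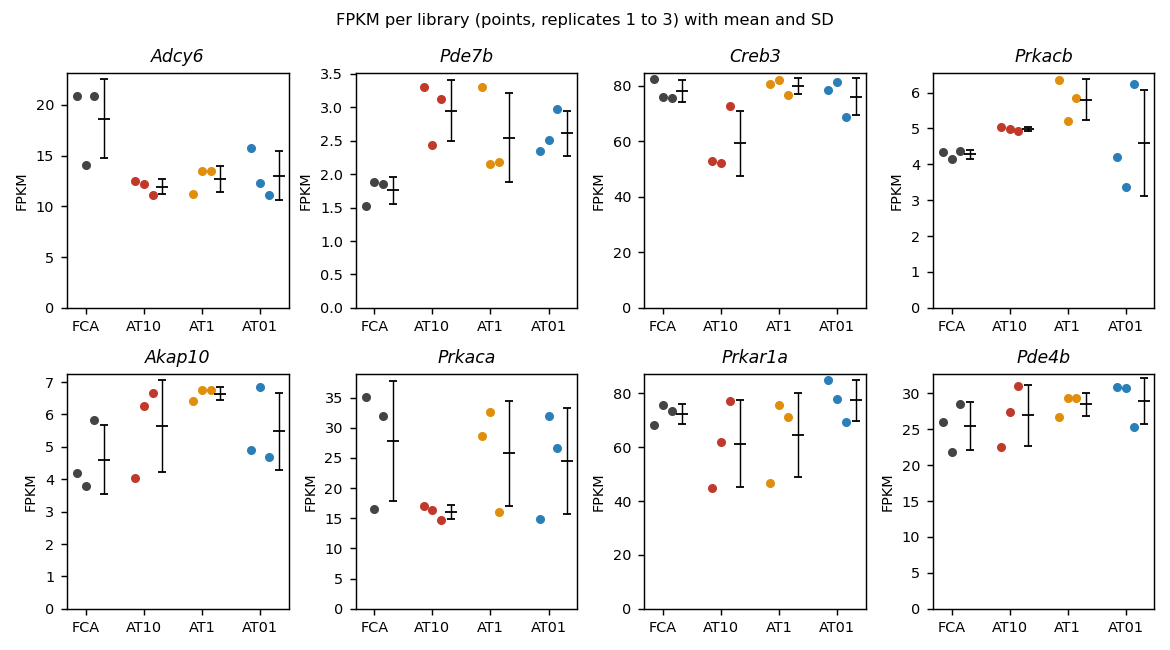
FPKM of 8 genes in each library (points, left to right replicates 1 to 3) with the group mean and SD (bars), on axes that start at 0. Pde7b is the gene whose FCA points all lie below the points of the other 3 groups, and Prkaca falls into 6 libraries between 14.8 and 17.0 FPKM and 6 between 26.7 and 35.0 FPKM.

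Prkaca, the main catalytic subunit of PKA, had the largest log2(FPKM + 1) difference between AT10 and FCA among the 37 genes, and its replicates were far apart. It was at 35.03, 16.46 and 31.87 FPKM in FCA, at 16.98, 16.41 and 14.75 in AT10, at 28.71, 32.58 and 16.00 in AT1 and at 14.84, 32.01 and 26.70 in AT01. Thus 6 libraries were at 14.75 to 16.98 FPKM and 6 at 26.70 to 35.03 FPKM, and the lower level held all 3 AT10 libraries and 1 library of each other group. The log2 difference between AT10 and FCA was -0.69 (SE 0.28, 95% interval -1.39 to 0.01, limma adjusted p = 0.427). Without FCA replicate 2, the FCA library at the lower level, it was -1.02 (limma adjusted p = 0.0551), and without FCA replicate 1 it was -0.49 (adjusted p = 0.635). An unadjusted p under 0.05 was reached for Prkaca in 2 of 14 alternatives.

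Prkacb, the second catalytic subunit, was at 4.33, 4.14 and 4.38 FPKM in FCA, at 5.05, 4.97 and 4.93 in AT10, at 6.35, 5.21 and 5.85 in AT1 and at 4.19, 3.36 and 6.23 in AT01. AT10 and AT1 were above FCA in every library, and AT01 spread to both sides of it. The log2 difference was 0.18 (SE 0.06, limma adjusted p = 0.373) in AT10, 0.36 (SE 0.08, adjusted p = 0.416) in AT1 and 0.05 (SE 0.19, adjusted p = 0.962) in AT01. The Prkaca to Prkacb ratio was 3.22 ± 0.199 (SD, n = 3) in AT10, against 6.45 ± 2.18 in FCA, 4.50 ± 1.76 in AT1 and 5.79 ± 3.26 in AT01. The AT10 ratios were below those of FCA and AT01 in every library but inside the range of AT1.

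Prkar1a was at 68.38, 75.74 and 73.31 FPKM in FCA, at 44.71, 62.10 and 77.34 in AT10, at 46.62, 75.56 and 71.15 in AT1 and at 84.91, 77.82 and 69.54 in AT01. In AT10 and in AT1, 1 library stood well below the rest, and the groups overlapped. Prkar2a was at 10.48, 7.16 and 10.46 FPKM in FCA, at 10.67, 10.85 and 11.78 in AT10, at 10.35, 10.72 and 11.95 in AT1 and at 10.68, 9.94 and 11.97 in AT01. FCA replicate 2 was the lowest of the 12 libraries, and the log2 difference of TCDCA as a whole was 0.23 (SE 0.10, limma adjusted p = 0.393). Without that library it was 0.06.

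Akap1 varied least of the 37 genes within groups (SD 0.0693 on the log2 scale). It was at 18.86, 17.83 and 17.99 FPKM in FCA, at 18.08, 16.73 and 17.95 in AT10, at 18.35, 18.11 and 18.55 in AT1 and at 19.34, 16.68 and 16.65 in AT01, and for TCDCA as a whole its 95% interval ran from -0.15 to 0.09 on the log2 scale. Akap8 was at 8.77, 7.02 and 8.87 FPKM in FCA and between 7.18 and 9.38 FPKM in the TCDCA libraries. Akap17a was at 5.81, 10.32 and 5.77 FPKM in FCA, at 4.55, 5.71 and 8.80 in AT10, at 4.74, 4.43 and 9.13 in AT1 and at 5.43, 8.94 and 5.05 in AT01. Each group thus held 1 Akap17a library above 8 FPKM and 2 below 6 FPKM.

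A further 3 anchoring proteins had an unadjusted p under 0.05 in a comparison with FCA. Akap10, a dual-specificity anchor with RGS domains, was at 4.20, 3.80 and 5.82 FPKM in FCA, at 4.03, 6.25 and 6.67 in AT10, at 6.41, 6.75 and 6.76 in AT1 and at 4.90, 6.84 and 4.70 in AT01. AT1 lay above FCA in every library, with a log2 difference of 0.46 (SE 0.14, limma adjusted p = 0.428), and the other doses overlapped FCA. With the 2 Akap10 records summed, FCA replicate 3 (6.53 FPKM) was above AT1 replicate 1 (6.41 FPKM) and the groups overlapped. An unadjusted p under 0.05 was kept for Akap10 in AT1 in 9 of 14 alternatives. Akap12 was at 5.64, 5.20 and 5.83 FPKM in FCA, at 4.88, 5.70 and 4.76 in AT10, at 5.14, 5.17 and 5.01 in AT1 and at 4.43, 5.07 and 3.88 in AT01. AT1 and AT01 lay below FCA in every library, and the log2 difference was -0.27 (SE 0.11, limma adjusted p = 0.72) in AT01. Akap9 was at 2.19, 2.10 and 3.46 FPKM in FCA, at 2.73, 3.25 and 4.12 in AT10, at 3.10, 3.23 and 3.66 in AT1 and at 3.57, 3.48 and 3.06 in AT01, and its log2 difference for TCDCA as a whole was 0.30 (SE 0.12, limma adjusted p = 0.365). FCA replicate 3 was higher than 5 of the 9 TCDCA libraries, and without it the difference was 0.46 (limma adjusted p = 0.183). Over 20 alternatives the Akap9 difference ran from 0.20 to 0.46, with adjusted p-values (limma or the unmoderated F test) up to 0.816. In 18 of the 20 the unadjusted p was under 0.05.

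Creb3 was at 82.57, 75.82 and 75.76 FPKM in FCA, at 52.81, 52.21 and 72.85 in AT10, at 80.79, 82.14 and 76.83 in AT1 and at 78.55, 81.20 and 68.63 in AT01. AT10 lay below FCA in every library, and 2 of its 3 libraries were below all 10 others, while AT1 and AT01 overlapped FCA. The log2 difference was -0.41 (SE 0.14, limma adjusted p = 0.373) in AT10, 0.03 (SE 0.06, adjusted p = 0.825) in AT1 and -0.04 (SE 0.09, adjusted p = 0.934) in AT01. In the F test over the 4 groups Creb3 had the smallest p of the 37 genes (limma adjusted p = 0.512). Creb1 was between 0.99 and 1.74 FPKM in FCA, 1.43 and 3.13 in AT10, 1.53 and 2.37 in AT1 and 1.10 and 2.12 in AT01, with all groups overlapping.

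Between libraries of 2 groups, the genes without overlap were 5 of 37 in AT10 against FCA (19.9% of all records), 6 in AT1 (19.9%) and 6 in AT01 (14%). Those not described above were Pde1a and Pde4a, both lower in AT01 than in FCA, at 2.43 to 2.79 against 2.83 to 3.24 FPKM and at 1.93 to 2.01 against 2.06 to 2.29 FPKM. Between doses, 3 genes had an unadjusted p under 0.05 in AT10 against AT1 (6.46% of all records), namely Creb3, Pde3a and Pde3b, each lower at the higher dose (3.74% of all records in that direction). Their log2 differences were -0.44, -0.34 and -0.27. When AT01 was compared with AT10 and with AT1 there were 0 of 37 such genes, where 4.97% and 3.43% of all records passed.

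The promoters of the genes were searched for the full cAMP response element TGACGTCA, which reads the same on both strands, because Crem is known for an inducible promoter that carries it. RefSeq promoters of the build GRCr8 (250 bases before to 50 after a start site) were on hand for 43 of the 56 genes, with 56 start sites. Crem was the reason for the search, so the shares that follow do not measure an excess in the set. The element was found at 3 of these 56 start sites (5.36%), against 612 of 33469 rat start sites (1.83%), and it lay in Crem (at 2 start sites) and Akap17a. The stretches around it upstream of the start sites are given 5′ to 3′ on the gene's strand, with the element in capitals, from chr17:58984695-58984794 (plus strand) and chr17:58985409-58985489 (plus strand) for Crem and chr12:21428406-21428497 (minus strand) for Akap17a.
Crem, first start site: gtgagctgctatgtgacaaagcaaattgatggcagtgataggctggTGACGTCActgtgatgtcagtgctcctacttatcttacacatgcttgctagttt
Crem, second start site: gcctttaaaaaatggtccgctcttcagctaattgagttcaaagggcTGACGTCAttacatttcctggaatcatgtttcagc
Akap17a: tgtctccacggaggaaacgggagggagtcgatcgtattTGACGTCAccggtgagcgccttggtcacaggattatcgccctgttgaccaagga
The element began 56 and 35 bases before the Crem start sites and 212 bases before that of Akap17a. A further match in Crem, not printed, began 40 bases after a start site. The core TGACG or CGTCA on either strand, which the full element contains, was found at 16 of the 56 start sites (28.6%), against 21.2% of all rat start sites, and so in 12 of the 43 genes, among them Pde4d, Prkaca and Creb1. A match describes these letters only. Crem and Akap17a, the genes with the full element, both overlapped between FCA and each TCDCA group, with log2 differences for TCDCA as a whole of 0.07 (95% interval -0.18 to 0.33) for Crem and -0.19 (-0.71 to 0.34) for Akap17a.

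Other genes of the pathway were taken from lists of known function. Of 40 receptors that couple to Gs, 7 had a mean of at least 1 FPKM, and over the 12 libraries the highest means were those of the adenosine receptor Adora2b and the prostacyclin receptor Ptgir. In FCA alone Adora2b (2.26 FPKM) lay below Ptgir (9.09 FPKM), Ptger4 (4.90 FPKM), Calcrl (2.82 FPKM) and Pth1r (2.78 FPKM). Adora2b was at 3.08, 1.53 and 2.17 FPKM in FCA, at 27.84, 5.24 and 9.34 in AT10, at 3.17, 32.68 and 27.43 in AT1 and at 35.97, 0.51 and 2.64 in AT01. AT10 and AT1 lay above FCA in every library and AT01 fell to both sides, with log2 differences of 1.94 (SE 0.57, limma adjusted p = 0.301), 2.31 (SE 0.83, adjusted p = 0.435) and 0.88 (SE 1.16, adjusted p = 0.87). Adora2b met the study's own rule in AT10 and AT1, where 0.706% and 0.62% of all records did, and lost it in 3 and 8 of 14 alternatives. In AT10 it was lost without FCA replicate 2 (log2 difference 1.77), and in AT1 it held without AT1 replicate 1 (3.27, limma adjusted p = 0.037) and was lost without any of the other 5 libraries (1.77 to 2.49). Ptgir was between 3.94 and 10.13 FPKM. Gpbar1, the gene of TGR5, did not exceed 0.06 FPKM in any library.

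Of 24 G protein subunits and regulators, 20 were tested, with Gnai2 (169 to 202 FPKM), an inhibitory alpha subunit, and Gnb2 (107 to 159 FPKM), a beta subunit, the most abundant. Of 25 other effectors, inhibitors and exporters, 15 were tested, led by the cyclase-associated protein Cap1 (99.4 to 159 FPKM) and by Rab32, a small GTPase that also anchors PKA (22.6 to 45.1 FPKM). Of 24 coactivators and partners of CREB, 20 were tested, with the bZIP factor Atf4 (33.7 to 170 FPKM) and the phosphatase subunit Ppp1ca (91.5 to 109 FPKM) the highest. No gene of the receptor list or of these 3 lists passed an adjusted p under 0.05 (limma) in a comparison with FCA. At an unadjusted p under 0.05 there were between 0 and 2 genes of each of these 4 lists in a direction at any dose. Of all records, 7.54% were higher and 4.34% lower in AT10, 5.56% and 5.44% in AT1, and 2.57% and 4.03% in AT01. The receptor list had 2 higher and 1 lower of 7 tested in AT10. For TCDCA as a whole there were between 0 and 3, where 5.86% of all records were higher and 6.15% lower. The coactivators and partners of CREB then had 1 higher and 3 lower of 20 tested.

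Of 35 known CREB target genes, 29 were tested. At an adjusted p under 0.05 (limma) there was 1 in AT1 and 1 in AT01, both lower than in FCA. At each of these doses 0.0947% of all records passed. There were 0 in AT10 and 0 for TCDCA as a whole, where 0.172% and 0.0258% of all records passed. Egr1, an immediate early transcription factor, was at 40.1, 43.2 and 41.9 FPKM in FCA, at 46.7, 47.0 and 41.5 in AT10, at 24.3, 25.5 and 22.4 in AT1 and at 22.3, 28.2 and 23.4 in AT01. Egr1 fell in AT1 (log2 difference -0.77, SE 0.07, limma adjusted p = 0.0488), and in AT01 the difference was -0.74 (SE 0.10, adjusted p = 0.178), whereas AT10 overlapped FCA. The Egr1 call lies at the threshold and was lost under most alternatives, with adjusted p-values between 0.0422 and 0.351.

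Bdnf, a neurotrophin gene with 9 transcripts in its record, was at 6.88, 6.59 and 7.89 FPKM in FCA, at 8.78, 0.97 and 11.46 in AT10, at 6.83, 0.75 and 7.69 in AT1 and at 0.73, 0.47 and 0.51 in AT01. Bdnf fell in AT01 (log2 difference -2.37, SE 0.11, limma adjusted p = 0.00312), and 1 library each of AT10 and AT1 was at the same low level. The Bdnf call was lost with all 12 libraries in 1 fit (adjusted p = 0.44), in an unmoderated F test in the manner of Ballgown (0.276) and with the replicate number as a block (0.163). Over the list, 6 of 29 targets were lower and 2 higher at an unadjusted p under 0.05 in AT1, where 5.44% and 5.56% of all records were, 7 lower and 1 higher in AT01 (4.03% and 2.57%), and 0 lower and 2 higher in AT10 (4.34% and 7.54%). The median log2 difference of the 29 was -0.15, -0.11 and 0.07. The most abundant targets, Il6 (81.6 to 205 FPKM) and Dusp1 (40.7 to 194 FPKM), did not pass the adjusted threshold at any dose.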

How the data were processed

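Poly(A) RNA of the 12 libraries was sequenced, and per the methods the authors aligned reads with HISAT2, assembled transcripts with StringTie and estimated expression with Ballgown. The deposited values are FPKM to 2 decimals. The genome build, and any scaling between libraries, are not given in the sources used here. The labels name another sequencer and amount of input RNA than the methods.

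Groups were taken from the sample titles. Records averaging 1 FPKM or more were tested on log2(FPKM + 1) with limma 3.58.1 in R 4.3.3 (trended eBayes), 2 groups at a time. A pooled fit and an F test used all 12 libraries. Exact permutation tests, two-sided, were run in Python 3.11.15 with SciPy 1.17.1; 3 libraries against 3 cannot go below 0.1. The fits were tested on simulated data. Values per library are given for the leading genes of each class, those with an unadjusted p under 0.05 against FCA or in the F test, and those without overlap between FCA and all TCDCA libraries. Members and lists were chosen with earlier results of these data known. Alternatives were another pseudocount, filter, scaling, test, record choice or fit, a replicate block, and each library left out.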

Additional observations from a re-analysis of the deposited data

How the results depend on the processing

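The count of members at an adjusted p under 0.05 or at the criterion of the study was 0 in 226 of 227 alternatives, as in the reported tests. The exception was the criterion of the study in AT10 against FCA, where leaving out 1 library at a time gave 0 to 1 members. The 1 member came without FCA replicate 2 and was Prkaca. Of 1302 log2 fold changes of named members under alternatives, 1256 had the sign reported. Those of the other sign were of differences without an unadjusted p under 0.05 in the reported test. Adcy6 and Pde7b kept an unadjusted p under 0.05 under 20 of 20 alternatives for TCDCA as a whole, with adjusted p-values (limma or the unmoderated F test) of 0.126 to 0.443 and 0.179 to 0.66. For Creb3 and Prkacb in AT10, 7 and 6 of 14 alternatives kept it. Prkacb in AT1 kept it in 14 of 14, with adjusted p-values (limma or the unmoderated F test) of 0.267 to 0.668. Of the alternatives added after Egr1 and Bdnf had been called, those with each library left out kept the call of Bdnf (adjusted p from 0.0074 to 0.0241) and none kept that of Egr1. Over all alternatives Bdnf lost its call in 3 of 14 and Egr1 in 11 of 14. The cause of these changes was not tested.

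The replicate numbers recur in the 4 groups and mark repeats of the experiment, with no word on shared cells or days, and same-numbered libraries did not deviate together (correlations of -0.105 to 0.094 over 18 combinations, against -0.154 to 0.149 over 36 with different numbers), so the numbers were not taken as pairs. With the replicate block, 0 members passed the adjusted threshold, and the limma adjusted p for TCDCA as a whole was 0.235 for Adcy6 and 0.288 for Pde7b. The block ended the calls of Egr1 (adjusted p = 0.351) and Bdnf (0.163).

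No read counts were used, so no counting error is given. A p above the threshold does not show that levels were equal.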
